A study of Mus musculus with 23 samples.

Results

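The 8 genes described here encode the enzymes that place and remove DNA methylation in the mouse, with their direct partners: *Dnmt1*, *Uhrf1*, *Dnmt3a*, *Dnmt3b*, *Dnmt3l*, *Tet1*, *Tet2* and *Tet3*. They were chosen by name, out of 55413 annotated genes on chromosomes 1 to 19, X and Y, and their values are the CTCF-RNA crosslink sites on the strand of each gene within its annotated body. The sites come from iCLIP2, in which UV light links a protein to the RNA it touches and the end of a cDNA marks the linked nucleotide. Nuclear RNA linked to CTCF, the architectural protein of chromatin loops, was profiled in mouse embryonic stem cells (ESCs) of the E14 line and in neural progenitors (NPCs) obtained from that line after 2 days of differentiation. In all cells the endogenous CTCF carried a degron tag, was degraded with 1 µM 5-Ph-IAA, and was replaced by a Flag-Halo-tagged rescue CTCF induced with 1 µg/mL doxycycline for 24 hours. Rescue CTCF was either wild type (WT) or ΔZF1, a mutant without part of its zinc finger 1, and each rescue line was a single clone. Both cell types were kept in N2B27 medium, to which leukemia inhibitory factor, CHIR99021 and PD0325901 were added for ESCs. UV was given at 254 nm and 400 mJ/cm2, and non-crosslinked controls (noXL) were made in both cell types from the WT rescue line only, so ΔZF1 had no control of its own without UV.

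DNA methylation is written on cytosine. Dnmt1 copies it to the new strand after replication and is brought to half-methylated DNA by Uhrf1, whereas Dnmt3a and Dnmt3b write it anew and Dnmt3l, which has no catalytic activity, stimulates them. The Tet proteins oxidize the methyl group and so start its removal. ESCs grown with inhibitors of differentiation are known for low methylation and for expression of Tet1 and Tet2, and the new-writing enzymes are known to rise when cells leave that state. CTCF itself binds many of its DNA sites only when they are unmethylated.

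The authors called sites on the merged libraries of each group, 3 for NPCs with WT and 4 for each of the other 5 groups. There is thus 1 value per gene and group, with no replicate error, and no difference below was tested. Ranges in parentheses are 95% Wilson intervals, or intervals of ratios derived from them, and cover counting error only. The lists held 102002 to 429119 sites within genes (genic sites), the fewest in NPC noXL and the most in ESC WT, and the read depth behind them is unknown. The ESC markers *Nanog*, *Klf4*, *Zfp42*, *Esrrb* and *Tfcp2l1* held 66 to 460 sites with WT in ESCs and 0 to 14 in NPC WT. Of the NPC markers, *Nes* held 2 sites with WT in ESCs and 28 in NPCs, whereas *Sox1*, *Pax6*, *Hes5* and *Zic1* were at 0 in both, so *Nes* was the only NPC marker with more sites in NPC WT. *Sox2*, a gene of both cell types, held 35 sites with WT and 8 with ΔZF1 in ESCs and 9 and 0 in NPCs, and *Pou5f1*, a pluripotency gene, held 37 with WT in ESCs and 14 in NPCs. Markers of other cells (*T*, *Gata6*, *Sox17*, *Gata4* and *Cdx2*) were at 0 in all 6 lists. A site count depends on how much of the RNA is present as well as on contact with CTCF, RNA abundance was not analysed here, and fewer cells of a type and less RNA per cell cannot be told apart.

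The nucleotides that carried the strongest signal are shown first, because they show where on each RNA the signal lay and which bases were linked. Each line gives 21 bases of mm10 on the strand of the gene, 5′ to 3′, with the crosslinked base in capitals. The first is the only nucleotide of the 8 genes present in all 4 UV lists, and it was present in both noXL lists too. The others are the highest-scoring sites of the gene in the named WT list.
*Dnmt1*, all lists, chr9:20932105-20932125, minus strand, coding exon: acggaaaaaaGgcaaaguccu
*Dnmt1*, ESC WT, chr9:20907901-20907921, minus strand, coding exon: gccuggagauUaagcucugcc
*Uhrf1*, ESC WT, chr17:56303394-56303414, plus strand, 5′ UTR: uuucgcgggaAaaaaaguccu
*Dnmt3a*, ESC WT, chr12:3891785-3891805, plus strand, 5′ UTR: ggcagcuauuUacagagcuuc
*Dnmt3b*, NPC WT, chr2:153649442-153649462, plus strand, 5′ UTR: cccuccccacCcacucccgug
*Dnmt3l*, NPC WT, chr10:78052712-78052732, plus strand, coding exon: augcuacuguUucgagugugu
*Tet1*, ESC WT, chr10:62892850-62892870, minus strand, 5′ UTR: cggcaggcagAucuuuucuga
*Tet1*, NPC WT, chr10:62878322-62878342, minus strand, coding exon: cauguaauucUacgccgccaa
*Tet2*, ESC WT, chr3:133544284-133544304, minus strand, 5′ UTR: ucguagaggaGcagaaggaag
*Tet3*, NPC WT, chr6:83370606-83370626, minus strand, coding exon: acggaugaguUuggcagcgag

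The *Dnmt1* nucleotide seen in every list had a score of 13.3 with WT and 8.32 without UV in ESCs, and of 16.5 with WT in NPCs, and it was a guanosine after a run of adenosines. Several of the top sites lay at or near the first bases of a transcript and were not on uridine. The *Dnmt3b* site was 2 nt past an annotated transcript start and had the highest score of any site in these genes, 95.5 in NPC WT, against 17.9 in ESC WT. It was also called in ESC ΔZF1 and, without UV, in NPC noXL. The *Uhrf1* site was 4 nt past such a start, the *Tet2* site 8 nt and the *Tet1* site of ESC WT 126 nt. The *Tet1* exon 2 site shown for NPC WT was on uridine and was also called in ESC WT and ESC ΔZF1.

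**Figure D1:**
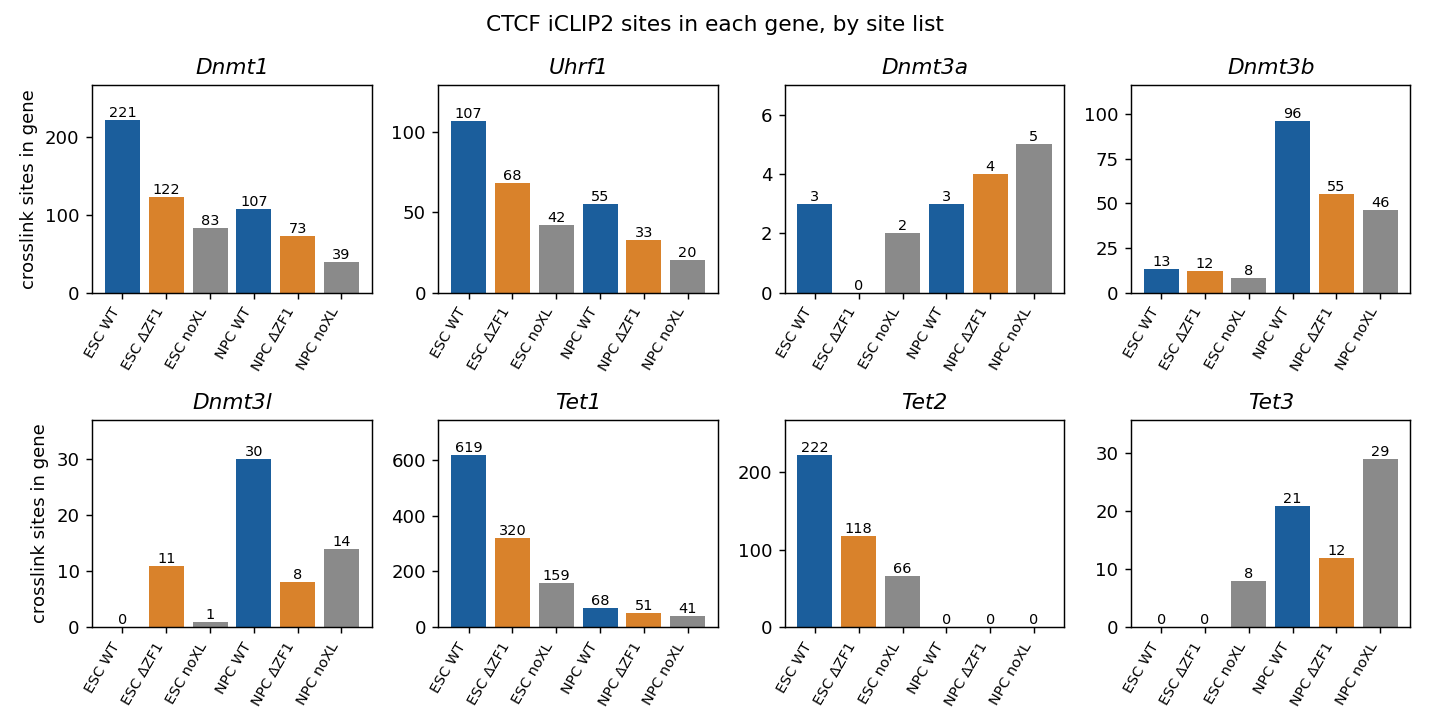
Crosslink sites in each of the 8 genes (y axis, count on a scale of its own per gene) in the 6 lists (x axis), with WT in blue, ΔZF1 in orange and noXL in grey. *Tet2* is at 0 in all 3 NPC lists, *Dnmt3b* is higher in all 3 NPC lists, and *Dnmt1* and *Uhrf1* hold sites in all 6 lists, the most in ESC WT.

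The maintenance genes held a somewhat lower share of sites in NPCs than in ESCs with each kind of list, within the limits used below. The interval of each of these NPC to ESC ratios included 0. *Dnmt1*, the maintenance methyltransferase, spans chr9:20907209-20959888 on the minus strand and held 221, 122 and 83 sites in ESCs with WT, ΔZF1 and noXL, and 107, 73 and 39 in NPCs. Per 100000 genic sites these were 51.5, 56.0 and 55.0 in ESCs and 46.5, 47.6 and 38.2 in NPCs. Each NPC value was below the matching ESC value. *Uhrf1*, the reader of half-methylated DNA at chr17:56303321-56323486 on the plus strand, held 107, 68 and 42 sites in the ESC lists and 55, 33 and 20 in the NPC lists, in the same order, or 24.9, 31.2 and 27.8 and then 23.9, 21.5 and 19.6 per 100000. Its lowest values were in NPC ΔZF1 and NPC noXL. In ESC WT, *Dnmt1* ranked at the 96.8 percentile of the 8317 genes with at least 5 sites, and *Uhrf1* at the 88.2 percentile.

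The genes for new methylation had few sites in ESCs, and *Dnmt3b* had more in all 3 NPC lists. *Dnmt3a* (chr12:3806007-3914443, plus strand) held 3, 0 and 2 sites in ESCs with WT, ΔZF1 and noXL and 3, 4 and 5 in NPCs, too few to compare. All of its UV sites lay past base 3891744, where a shorter transcript, Dnmt3a-203, begins, as did all but 1 of its noXL sites. *Dnmt3b* (chr2:153649450-153687730, plus strand) held 13, 12 and 8 sites in the ESC lists and 96, 55 and 46 in the NPC lists, so that each NPC list held more than every ESC list. Per 100000 genic sites, *Dnmt3b* stood at 3.03 in ESC WT and 41.7 in NPC WT. *Dnmt3l*, the cofactor without catalytic activity (chr10:78041947-78063622, plus strand), held 0, 11 and 1 sites in the ESC lists and 30, 8 and 14 in the NPC lists, so that on site counts ESC ΔZF1 held more than NPC ΔZF1. Per 100000 genic sites every NPC list was above every ESC list, with *Dnmt3l* at 5.05 at most in ESCs (ΔZF1) and from 5.22 (ΔZF1) to 13.7 (noXL) in NPCs.

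The Tet genes moved apart from each other. *Tet1* (chr10:62804570-62908996, minus strand) held 619, 320 and 159 sites in ESCs with WT, ΔZF1 and noXL and 68, 51 and 41 in NPCs, and in ESC WT it ranked at the 99.8 percentile of genes with sites. Every ESC list held more *Tet1* sites than every NPC list, and per 100000 genic sites the gene stood at 144 in ESC WT and 29.6 in NPC WT. *Tet2* (chr3:133463679-133545139, minus strand) held 222, 118 and 66 sites in the ESC lists and 0 in each NPC list. A count of 0 allows up to 3 sites, or 1.30 per 100000 genic sites in NPC WT, against 51.7 in ESC WT. *Tet3* (chr6:83362373-83459084, minus strand) held 0, 0 and 8 sites in the ESC lists and 21, 12 and 29 in the NPC lists, with more in each NPC list than in any ESC list, and the most of all in NPC noXL. For *Tet3* the control without UV therefore exceeded the crosslinked lists in both cell types.

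The first comparison sets the site counts of NPCs against those of ESCs. Values are log2 ratios of NPC to ESC sites with a pseudocount of 1, corrected for the number of genic sites. A gene was compared where the lists together gave it 20 sites or more, and it was past a limit at 1 or -1. With WT CTCF, 7 of the 8 genes could be compared, and 5 were past a limit, 3 higher and 2 lower in NPCs. Among the 6730 genes compared, 22.0% were past a limit, 11.5% higher and 10.4% lower. *Dnmt3l*, with 30 and 0 sites, and *Tet3*, with 21 and 0, reached 20 sites through NPC WT alone, and *Tet2*, with 0 and 222, through ESC WT alone, so that these 3 had to lie past a limit once compared. *Dnmt3b*, with 96 and 13, also reached 20 sites only with its NPC WT sites. With at least 50 sites, which *Tet2* and *Dnmt3b* again reached through 1 list, *Dnmt3b* was higher and *Tet1* and *Tet2* lower of 5 genes compared, against 7.05% higher and 8.94% lower of all genes. Without scaling 3 were higher and 3 lower, against 5.16% and 41.9% of all genes. *Dnmt3b* was higher by 3.69 (2.96 to 4.61), which is 12.9-fold. *Dnmt3l* was at least 18.6-fold higher and *Tet3* at least 13.1-fold higher, taking 3 sites for the ESC WT list in which each was at 0. *Tet1* was lower, with a log2 ratio of -2.27 (-2.65 to -1.93), and *Tet2* was at least 39.7-fold lower, taking 3 sites for NPC WT. Such bounds leave out the counting error of the list that held sites. *Dnmt1*, at -0.14 (-0.48 to 0.18), and *Uhrf1*, at -0.05 (-0.53 to 0.41), stayed within the limits. The median of the 7 ratios was -0.05 and that of all genes compared 0.04.

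*Dnmt3b* was also higher and *Tet1* and *Tet2* lower in NPCs in the lists of ΔZF1 and of the cells without UV. With ΔZF1, 3 of 5 genes compared were past a limit, against 25.0% of all genes, 10.9% higher and 14.1% lower, and *Tet2*, at 0 in NPCs, was again bound to be among them. *Dnmt3b* was higher by 2.61 (1.82 to 3.59), *Tet1* stood at -2.12 (-2.57 to -1.72), and *Tet2* was at least 27.7-fold lower. *Dnmt3b*, with 55 NPC and 12 ESC sites, reached 20 sites only with its NPC sites. *Dnmt3l*, with 8 NPC and 11 ESC sites, and *Tet3*, with 12 and 0, fell short of 20 sites. Without UV, 4 of 6 genes compared were past a limit, against 23.4% of all genes, 11.1% higher and 12.3% lower, and without scaling 2 were higher and 4 lower, against 5.53% and 30.4% of all genes. *Tet2* was bound to be among these too, with 66 sites in ESCs and 0 in NPCs. *Dnmt3b*, with 46 NPC and 8 ESC sites, and *Tet3*, with 29 and 8, reached 20 sites only with their NPC sites. *Dnmt3b* was higher by 2.95 (2.03 to 4.15), *Tet3* was higher by 2.30 (1.32 to 3.52), *Tet1* stood at -1.37 (-1.88 to -0.90), and *Tet2* was at least 14.9-fold lower. The difference between cell types in these 4 genes was thus present in the lists made without crosslinking, which hold RNA that came through the procedure without UV. Of the 4, only *Tet1* held 20 sites or more in both of those lists.

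**Figure D2:**
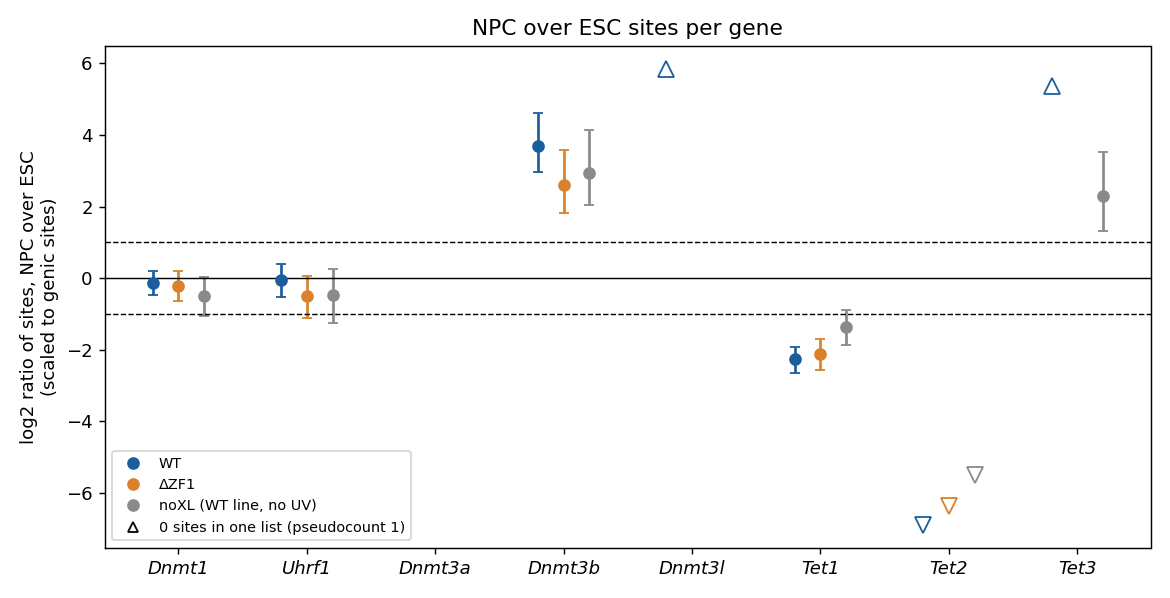
Log2 ratio of NPC to ESC sites, scaled to genic sites (y axis), for each gene (x axis) with WT, ΔZF1 and noXL. Bars are 95% intervals for counting error, open triangles mark genes at 0 in 1 list, dashed lines are the limits, and genes under 20 sites are not drawn. *Dnmt3b* is above 1 and *Tet1* below -1 with all 3 kinds of list.

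The UV and noXL ratios were then set against each other, with the same noXL lists serving both proteins. For *Tet1*, the WT log2 ratio of NPC to ESC was 0.90 below the noXL one, a difference of -0.90 (-1.51 to -0.30), and the ΔZF1 ratio differed from it by -0.75 (-1.40 to -0.11). The *Tet1* ratio was thus lower in the crosslinked lists than in the control. For *Dnmt3b* the difference was 0.74 (-0.57 to 2.05) with WT and -0.33 (-1.68 to 1.01) with ΔZF1, and for *Dnmt1* it was 0.37 (-0.27 to 1.00) with WT. For *Tet3*, at 0 in ESC WT, it was 3.06 (-0.03 to 6.14) with WT. Those intervals include 0, which does not show that the ratios were alike. On intron sites alone the NPC to ESC ratios of the maintenance genes passed the lower limit in 2 cases, *Uhrf1* with ΔZF1 at -1.13 and *Dnmt1* without UV at -1.14, against 24.2% and 19.7% of all genes lower on intron sites in those lists.

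Where the sites lay within *Tet1* differed between the cell types. In ESC WT, 155 of 619 *Tet1* sites were in exons, a share of 25.0%, whereas in NPC WT 65 of 68 were, a share of 95.6%. The same held with ΔZF1, at 15.0% and 96.1%, and without UV, at 5.66% and 82.9%. The intron sites of *Tet1* were thus almost gone in NPCs, at 464, 272 and 150 in ESCs with WT, ΔZF1 and noXL and 3, 2 and 7 in the matching NPC lists. All 619 sites of ESC WT, exon and intron together, fell as 41, 168, 149, 113 and 148 in 5 equal segments of the gene from start to end, whereas the 68 of NPC WT fell as 0, 17, 0, 10 and 41. The *Tet1* exon share was 70.5 percentage points higher in NPCs with WT, at the 99.9 percentile of the 3377 genes that held 20 sites or more in each of the WT lists, whose median change was 1.52 points. *Dnmt1* was 14.1 points higher and *Uhrf1* 2.74 points higher with WT. Of the *Tet1* sites in ESC WT, 11 also lay in another annotated gene of the same strand.

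The lower *Tet1* count in NPCs thus lay mainly in its introns. On intron sites alone, scaled to the intronic genic sites of each list, the *Tet1* ratio of NPC to ESC was -5.65 (-7.62 to -4.50) with WT, whereas on exon sites alone it was -0.48 (-0.90 to -0.07), within the limits. With ΔZF1 the exon ratio was 0.71 (0.14 to 1.28), and without UV it was 2.43 (1.50 to 3.58), so that the direction turned on exon sites in both. The last exon of a transcript with 13 exons, which holds the 3′ UTR, had 80 sites with WT in ESCs and 32 in NPCs, 20 and 24 with ΔZF1, and 2 and 16 without UV. The last exon thus held sites in all 3 NPC lists, fewer than in ESCs with WT and more in the other pairs. Of the 68 *Tet1* sites in NPC WT, 17 lay within 5 nt of an ESC WT site.

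*Dnmt3b* showed the opposite pattern. It had 0 intron sites in ESC WT and ESC ΔZF1 and 1 in ESC noXL, but 34, 26 and 30 in the NPC lists. Of the 13 sites of *Dnmt3b* in ESC WT, 8 were in exon 24, the last exon, and 3 were at the start of the gene. In NPC WT its sites ran through the whole body, with 17, 12, 26, 25 and 16 in 5 equal segments from start to end. On exon sites alone, the *Dnmt3b* ratio of NPC to ESC with WT was 2.94 (2.17 to 3.87), still past the limit. *Tet2* had 153 exon and 69 intron sites in ESC WT and neither kind in NPCs, and 51 of those exon sites lay in exons of noncoding transcripts. *Tet3* had only exon sites in NPC WT, 21 of them, 14 in the last of 5 equal segments of the gene.

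**Figure D3:**
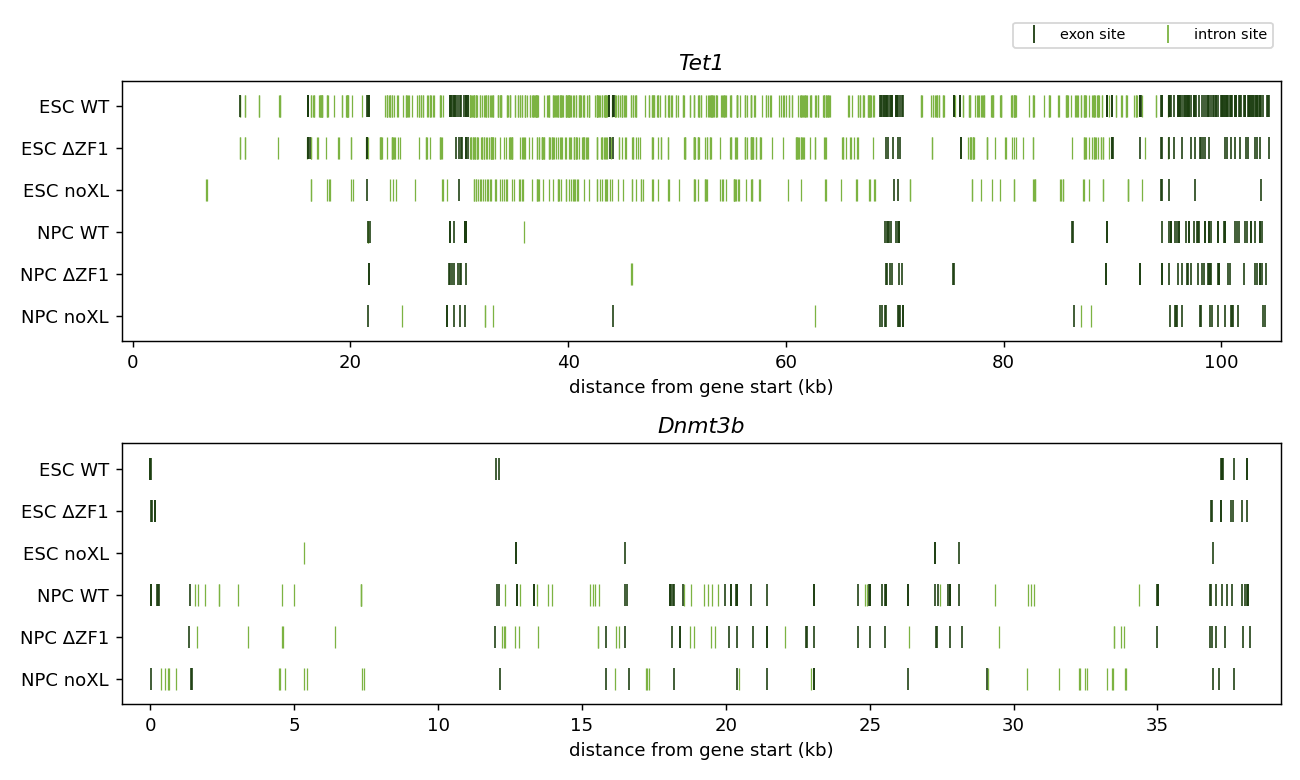
Position of every site in *Tet1* and *Dnmt3b* as the distance from the gene start in kb (x axis), in each list (y axis), with exon sites dark and intron sites light. *Tet1* introns are filled in the ESC lists and nearly empty in the NPC lists, and *Dnmt3b* shows the reverse.

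**Figure D4:**
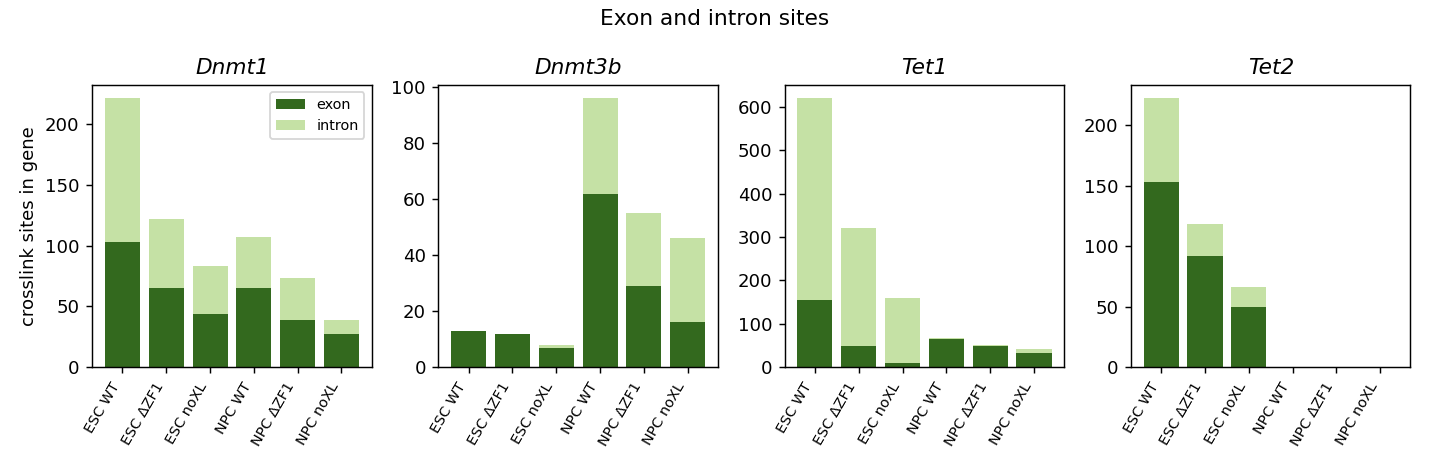
Exon (dark) and intron (light) sites (y axis, count) of *Dnmt1*, *Dnmt3b*, *Tet1* and *Tet2* in the 6 lists (x axis). Intron sites make up most of *Tet1* in ESCs and few of its sites in NPCs, *Dnmt3b* intron sites appear in NPCs, and *Dnmt1* holds both kinds in all lists.

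Over the 8 genes together, the exon share in ESCs was 42.0% (39.2 to 44.9) with WT, 41.8% with ΔZF1 and 39.8% without UV, against 66.6%, 68.1% and 59.8% of all genic sites. In the NPC lists it was 73.2% (68.5 to 77.4), 68.2% and 63.4%, against 73.1%, 60.4% and 57.4%. *Tet1*, with its low exon share in ESCs, held 619 of the 1185 sites of the 8 genes in ESC WT.

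The second comparison sets the site counts with ΔZF1, which lacks part of zinc finger 1, against those with WT. In ESCs, none of the 5 genes compared was past a limit, against 12.3% of the 6518 genes compared, 6.84% higher and 5.45% lower. *Tet1* stood at 0.03 (-0.17 to 0.22), *Tet2* at 0.07 (-0.25 to 0.39), *Dnmt1* at 0.13 (-0.20 to 0.44), *Uhrf1* at 0.33 (-0.11 to 0.76) and *Dnmt3b* at 0.87 (-0.24 to 1.97). In NPCs, 1 of 6 genes was past a limit, against 13.1% of the 5274 compared, 5.76% higher and 7.36% lower. This was *Dnmt3l*, lower with ΔZF1, at -1.20 (-2.42 to -0.22), from 30 sites to 8, and within the limits on exon sites alone (-0.78) and on uridine alone (-0.47). The other 5 ran from -0.21 (*Dnmt3b*) to 0.18 (*Tet1*). In ESCs *Dnmt3l* went the other way, from 0 sites with WT to 11 with ΔZF1, at least 7.23-fold higher taking 3 sites for WT, but these are under 20 sites. These ratios are scaled, and without scaling all 5 genes compared in ESCs had fewer sites with ΔZF1, whose list was shorter.

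Within *Tet1* the exon and intron sites moved apart in ESCs. The ratio of ΔZF1 to WT was -0.72 (-1.21 to -0.28) on exon sites and 0.28 (0.06 to 0.49) on intron sites, both within the limits, with 48 exon sites of 320 in ESC ΔZF1 and 155 of 619 in ESC WT. In ESC noXL only 9 of 159 *Tet1* sites were in exons, so the exon share of ΔZF1 lay between those of the control and of WT. Of the ΔZF1 sites in the 8 genes, 22.1% (19.1 to 25.5) in ESCs and 13.1% (9.41 to 18.0) in NPCs lay within 5 nt of a WT site of the same cell type, against 24.2% and 13.1% of all genic ΔZF1 sites.

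The third comparison sets the WT lists against the controls without UV. In ESCs none of the 5 genes compared was past a limit, against 14.7% of all genes, 8.12% higher and 6.6% lower, and *Tet1* stood highest at 0.45 (0.20 to 0.70). *Tet1* differed by position here too, with a WT to noXL ratio of 2.30 (1.49 to 3.39) on exon sites and 0.38 (0.12 to 0.65) on intron sites. In NPCs 1 of 6 genes was past a limit, against 17.0% of all genes, 10.5% higher and 6.51% lower. This was *Tet3*, lower in WT than in the control, at -1.62 (-2.44 to -0.84), or -0.45 and within the limits without scaling. The other 5 ran from -0.46 for *Tet1* to 0.26 for *Dnmt1*. After scaling, *Tet3* in NPCs thus had relatively fewer sites with UV than without, and no gene compared was past the upper limit. Without scaling 4 of 5 genes in ESCs and 4 of 6 in NPCs were higher and none lower, against 82.8% and 63.5% of all genes higher. The comparisons share lists (NPC WT serves in 3 of the 7), so they are not independent of each other.

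The bases under the sites differed between crosslinked and control lists. UV is known to link uridine most readily. In the 8 genes in ESCs, 58.5% (55.7 to 61.3) of the sites with WT, 51.8% (47.9 to 55.6) with ΔZF1 and 27.4% (23.1 to 32.1) without UV were on uridine. The NPC lists had 59.5% (54.5 to 64.3), 53.8% (47.4 to 60.1) and 22.2% (16.9 to 28.5). Over all genic sites they were 60.6%, 49.2% and 28.3% in ESCs and 64.6%, 59.0% and 27.9% in NPCs. These shares lay within the intervals of the 8 genes in every list but NPC WT, where the share of all genic sites was above the interval. *Tet1* in ESCs had 61.2% (57.3 to 65.0) on uridine with WT, 50.6% (45.2 to 56.1) with ΔZF1 and 30.8% (24.2 to 38.4) without UV. *Tet2* had 59.0% (52.4 to 65.3), 61.0% (52.0 to 69.3) and 21.2% (13.1 to 32.5) in the same lists, so that its ΔZF1 share was not below its WT share. *Dnmt3b* had 62.5%, 61.8% and 28.3% in NPCs with WT, with ΔZF1 and without UV. *Tet3* had 38.1% (20.8 to 59.1) in NPC WT and 24.1% (12.2 to 42.1) in NPC noXL, 2 intervals that overlap.

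**Figure D5:**
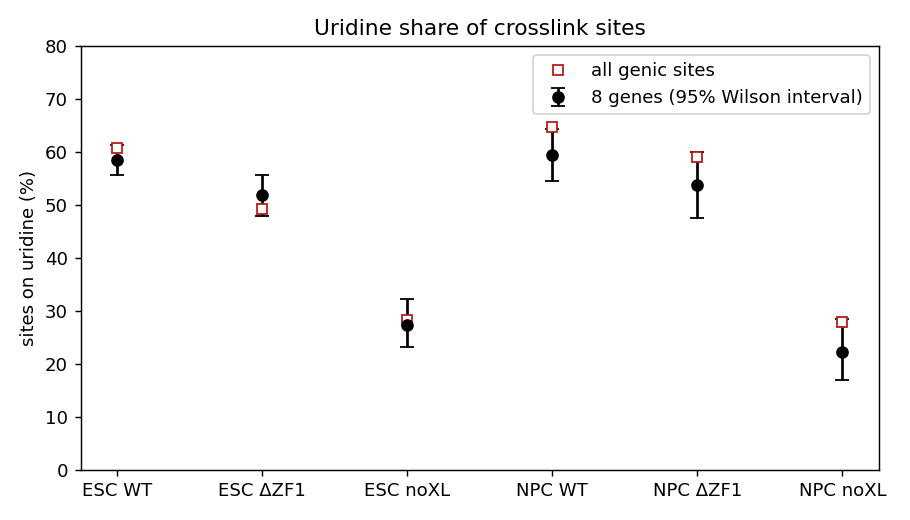
Share of sites on uridine (y axis, percent) in the 8 genes pooled (black, with 95% Wilson intervals) and over all genic sites (open squares) in the 6 lists (x axis). The noXL lists stand at 27.4% and 22.2% for the 8 genes and all UV lists above 50%.

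In the 8 genes, uridines under sites also lay beside other uridines more often in the UV lists. The matching share over all genic sites was not obtained. Of the uridine sites in the 8 genes, 75.6% (72.3 to 78.7) had a uridine on at least 1 side with WT in ESCs, 59.3% (54.0 to 64.5) with ΔZF1 and 47.5% (38.1 to 57.2) without UV. The NPC lists had 69.5% (63.2 to 75.1), 61.4% (52.7 to 69.4) and 46.5% (32.5 to 61.1). The order WT, ΔZF1, noXL was the same in both cell types, with intervals that overlap between WT and ΔZF1 in NPCs and between ΔZF1 and noXL in both. Although top sites of several genes lay at transcript starts, few sites did: 22 of 1185 in ESC WT were less than 50 nt past an annotated start, a share of 1.86% (1.23 to 2.80), against 6.43% of all genic sites. *Uhrf1* held 11 of these 22, and 7 of the 22 were on uridine.

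The 36 other genes of the pathway (readers of methylated DNA, maintenance partners, recruiters, partners of oxidation and base excision, and methyl donor enzymes) were counted in the same way. With WT, 23 could be compared, and 1 was higher and 1 lower in NPCs, against 11.5% and 10.4% of all genes. *Uhrf2*, a relative of *Uhrf1*, was higher by 1.37 (0.85 to 1.91), from 48 to 67 sites, and *Setdb1*, a histone H3K9 methyltransferase, stood at -1.38 (-1.94 to -0.89). With ΔZF1, 1 of 21 was higher and 4 were lower, against 10.9% and 14.1% of all genes. *Uhrf2* was higher by 3.73 (2.69 to 5.25), and *Zbtb38*, *Mbd4*, *Ehmt2* and *Trim28* were lower, of which *Zbtb38*, with 27 ESC and 0 NPC sites, had to be. Without UV, *Uhrf2* (1.76) and *Ehmt1* (1.13) were higher and *Mbd4* (-2.14) lower, of 14 compared, against 11.1% and 12.3% of all genes. *Uhrf2* was thus past the upper limit with all 3 kinds of list, unlike *Uhrf1*. With ΔZF1, at 55 NPC and 5 ESC sites, and without UV, at 38 and 16, *Uhrf2* reached 20 sites only with its NPC sites.

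Between ΔZF1 and WT, 3 of 25 of these genes were higher and 1 lower in ESCs, against 6.84% and 5.45% of all genes. In NPCs 2 of 20 were lower and none higher, against 7.36% and 5.76%. In ESCs *Zbtb38*, a methyl-CpG reader, was higher by 2.62 (1.62 to 3.84), *Ehmt2* by 1.51 (0.84 to 2.22) and *Mbd6* by 1.43 (0.32 to 2.60), and *Uhrf2* stood at -2.05, from 48 sites to 5. In NPCs *Trim28*, the corepressor that recruits Setdb1, stood at -1.61 (-2.63 to -0.79), and *Mbd4*, a glycosylase that reads methylated sites, at -1.27 (-2.58 to -0.25). Between WT and noXL, where 8.12% of all genes were higher and 6.6% lower in ESCs and 10.5% and 6.51% in NPCs, 24 of these genes could be compared in ESCs, with 1 higher and 1 lower, and 20 in NPCs, with 4 higher and 2 lower. *Trim28* was higher in both cell types, by 1.68 in ESCs and 1.61 in NPCs, and *Zbtb38* was lower in ESCs, at -2.04. In NPCs *Mbd4* (1.68), *Pcna* (1.09) and *Mbd3* (1.03) were higher too, and *Setd2* (-1.17) and *Ehmt1* (-1.15) were lower. *Trim28* sites were thus above the control in WT in both cell types and were lower with ΔZF1 than with WT in NPCs. It held 99 sites in ESC WT and 10 in ESC noXL, and 54, 7 and 11 in NPC WT, NPC noXL and NPC ΔZF1. In each of these comparisons it reached 20 sites only with its WT sites, and both NPC ratios used NPC WT. Between ΔZF1 and WT in ESCs it was not past a limit.

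The genes with the most similar pattern were sought for the highest and the lowest of the 8 in the WT ratio, as the smallest distance over the 6 lists among 6039 genes with at least 50 sites in all. For *Dnmt3l* they were *Gse1*, *Lin28a* and *Hotairm1*, at distances of 1.13, 1.17 and 1.18. *Lin28a* held 17 sites with WT and 35 with ΔZF1 in ESCs, and 58 and 23 in NPCs. These genes were selected for this likeness over the same 6 lists, so their pattern is no separate evidence for that of *Dnmt3l*. For *Tet2* they were *Fbxo15*, *Inpp5d* and *Jam2*, at closer distances of 0.34, 0.55 and 0.59, and each held 157 to 218 sites in ESC WT and 0 in every NPC list.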

How the data were processed

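CTCF iCLIP2 libraries (23) of mouse E14 cells fell into 6 groups by their labels. Reads were trimmed (Flexbar), mapped to mm10 (STAR) and freed of PCR duplicates (UMI-tools) by the authors, who then pooled each group and called 1-nt crosslink sites (PureCLIP). The deposited files give each site's PureCLIP score, a value not scaled to depth. Merging leaves no spread between libraries, so no test was made. Depth in reads is unknown.

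All sites on the autosomes (1 to 19), X and Y were assigned by strand to GENCODE M21 genes (GRCm38, the same build as mm10, 1-based positions). Bases were read from that genome, with T given as uridine. A site was exonic if any transcript of its gene had an exon there, with priority coding exon, 3′ UTR, 5′ UTR, noncoding exon, intron. Ratios used a pseudocount of 1, scaling to genic sites, at least 20 sites and limits of 1 and -1, and the floor for fold changes was 3 sites. The distance between genes was Euclidean, over log2(sites per 100000 genic sites + 1) in the 6 lists, centred per gene. The 8 genes, the related genes and markers were all reported or, for related genes, named where past a limit. The genes and lists were chosen with earlier results of these data known. The windows of 50 nt after transcript starts and the uridine neighbours were added after the data had been seen, as were the NPC WT sites whose sequences are shown. Alternatives changed score minimum, bases, merging, overlapping genes, exon or intron sites, scaling, pseudocount, gene minimum and removal of sites near noXL sites. Calculations were tested on simulated data. Python 3.11.15, numpy 2.4.6, pandas 2.3.3 and matplotlib 3.10.9 were used.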

Additional observations from a re-analysis of the deposited data

Results flagged for a closer look

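*Dnmt3l* moved in opposite directions with ΔZF1 in the 2 cell types. In ESCs it held 0 sites with WT and 11 with ΔZF1, at least 7.23-fold higher after scaling, whereas in NPCs it held 30 with WT and 8 with ΔZF1, a log2 ratio of -1.20. The ESC ratio rests on 11 sites in all, under the minimum of 20, and the NPC ratio reached that minimum through NPC WT, with 30 of the 38 sites. On exon sites alone the NPC ratio was -0.78 (-2.10 to 0.26), an interval that includes 0, and on uridine alone it was -0.47. The difference between the cell types was not tested. ESC noXL held 1 *Dnmt3l* site and NPC noXL 14.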

How the results depend on the processing

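No paired analysis was possible because site calling used pooled libraries, which also means that leaving out single libraries could not be tried. Of 463 ratios recomputed for single genes, 410 stayed within the interval of the reported value, 51 moved beyond it and 2 turned. A ratio counted as turned only where it was past a limit as reported and then changed sign. Other ratios that changed sign are therefore among the 410 or the 51. Both that turned were NPC to ESC ratios of *Tet1* on exon sites alone, to 0.71 with ΔZF1 and to 2.43 without UV. The number of genes past a limit between NPC and ESC with WT was 3 in place of 5 with a score minimum at the median of all lists (3.02), on uridine alone, on intron sites alone and with at least 50 sites, where fewer genes could be compared, 4 on exon sites or with sites within 8 nt merged, and 6 without scaling. The shares of all genes higher and lower were 9.09% and 10.4% with the score minimum, 10.1% and 10.6% on uridine, 17.3% and 23.8% on intron sites, 7.05% and 8.94% with at least 50 sites, 8.36% and 8.97% on exon sites, 10.7% and 10.2% with merged sites and 5.16% and 41.9% without scaling. With ΔZF1 it was 2 in place of 3 on exon sites (7.40% of all genes higher and 11.01% lower) and 4 on intron sites (21.4% and 24.2%), without scaling (6.47% and 30.0%) and with at least 10 sites (13.2% and 16.6%). Without UV it was 1 in place of 4 on uridine alone, where only 2 genes could be compared (11.9% and 13.0%), 3 on intron sites (17.8% and 19.7%) and with at least 50 sites (8.74% and 10.1%), 5 with the score minimum (9.97% and 12.4%) and with at least 10 sites (13.4% and 15.8%), and 6 without scaling (5.53% and 30.4%). For ΔZF1 against WT it was 1 in place of 0 in ESCs with at least 10 sites, when *Dnmt3l* entered and 8.93% of all genes were higher. In NPCs it was 0 in place of 1 with the score minimum, on uridine, exon or intron sites alone and with at least 50 sites, where *Dnmt3l* stood at -0.78 on exon sites and -0.47 on uridine and had too few sites to compare otherwise. For WT against noXL it was 1 in place of 0 in ESCs on exon sites (*Tet1*, with 9.29% of all genes higher) and 4 of 5 without scaling, all higher, when 82.8% of all genes were higher. In NPCs, in place of 1, it was 2 with the score minimum, both lower as were 10.9% of all genes, and 4 of 6 without scaling, all higher, when 63.5% of all genes were higher and *Tet3* stood at -0.45. It stayed at 1 on intron sites and on uridine alone, but there *Tet3* had too few sites to compare and the gene past the limit was higher, *Dnmt1* at 1.21 on intron sites and *Uhrf1* at 1.16 on uridine, with 10.8% and 10.9% of all genes higher. With the score minimum the exon share in ESCs was 54.8% with WT and 46.6% with ΔZF1 and in NPCs 78.7% with WT, and the uridine share in NPC WT was 66.5%. The cause of these shifts in shares was not tested. The higher *Dnmt3b* in NPCs kept its direction under every alternative that could compare it. On intron sites it could not turn with WT, at 34 NPC and 0 ESC sites, or with ΔZF1, at 26 and 0. With each kind of list *Dnmt3b* also reached the minimum of 20 sites only with its NPC sites. *Tet2*, at 0 in all NPC lists, could not turn under any alternative. Read depth is unknown for all lists, and *Dnmt3a* had too few sites to compare in any of them.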
